A study of Homo sapiens with 2 samples.

Results

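The enzyme genes of glycolysis, of the pentose phosphate pathway and of the citrate cycle were examined in HCT116, a long-established human colorectal carcinoma line of epithelial origin. The members were chosen by name: 51 genes, 11 for the upper part of glycolysis, 8 for the lower part, 9 for the fate of pyruvate, 7 for the pentose phosphate pathway and 16 for the citrate cycle and its cytosolic counterparts, out of 51640 gene symbols in the tables. Each was present as 1 row in both tables with an accepted estimate, pyruvate kinase under the symbol PKM. The study sequenced RNA from 2 cultures of the line, named PF and PJ, which the submitters describe as biological replicates; the labels do not say what the letters stand for. The labels name no treatment; both were grown in DMEM with fetal bovine serum and antibiotics to subconfluence, with no glucose or oxygen level stated. HCT116 is a single established line, so the libraries describe that line and not colon tissue, and the normal colon libraries that the design text mentions were not analysed here.

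Glycolysis splits glucose in the cytosol into pyruvate, with a small yield of ATP and NADH. Pyruvate is then either reduced to lactate by lactate dehydrogenase, which many tumour cells do even with oxygen present, or oxidised in the mitochondrion by pyruvate dehydrogenase to feed the citrate cycle. The pentose phosphate pathway branches off glucose 6-phosphate, makes NADPH in its oxidative branch and ribose for nucleotides in both branches, and returns its carbon through transketolase and transaldolase. Many of the steps have several isoenzymes encoded by separate genes, which differ in tissue, compartment or regulation.

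Levels are given as FPKM, fragments scaled to transcript length and to the library's mapped total, a per-length unit that allows genes to be set side by side. The tables also give the lower and upper 95% bounds of each estimate, which cover the estimate within a library and not the variation between cultures. The number of fragments is unknown. For 14 of the 51 genes the estimate lay outside its own bounds in 1 or both libraries, for 10 of them in both; among the 15736 symbols whose mean reached 1 FPKM the share was 16.0%. The libraries stood apart in many genes: 2462 of the 15736 symbols differed at least 2-fold, and the median PJ to PF ratio over the symbols expressed in both was 1.19. Of 9 epithelial markers, 6 reached 1 FPKM in each library, and the 9 summed to 1530.5 FPKM for PF and 906 for PJ. KRT8 was at 760 and 280 FPKM, EPCAM at 213 and 143, KRT18 at 216 and 147, and CDH1 (E-cadherin) at 21.9 and 1.80. KRT19 was slightly higher in PJ, at 306 and 325 FPKM. Of the intestinal markers in this list, CDX2 was at 12.3 (PF) and 9.32 (PJ) FPKM, and CDH17, VIL1 and LGALS4 were under 1 FPKM in both. Of 5 fibroblast markers only COL1A1 reached 1 FPKM in each library (7.28 and 2.93; list sums 7.46 and 3.28), and none of the 3 endothelial, 4 immune, 2 hepatocyte, 4 muscle or 3 neuron markers did, with list sums of at most 2.99 FPKM. No marker was at 0 in both libraries. Whether fewer cells carried a transcript or each cell held less of it cannot be told apart in bulk RNA, and the part of the markers in the differences between the libraries described further on was not tested.

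HCT116 expressed nearly the whole set. In each library the same 48 of the 51 genes reached 1 FPKM, or 94.1%, against a background of 27.9% of all symbols and 57.3% of protein-coding symbols. The exceptions were HK3, TKTL1 and PDK4, each a minor member of an isoenzyme family. Of the 51 genes 23 were among the highest 10.0% of protein-coding symbols by mean level, and 16 reached 100 FPKM in each library, where the share of protein-coding symbols was 3.90%. The routes differed widely in level: the median gene of lower glycolysis was at 462 (PF) and 542 (PJ) FPKM. For upper glycolysis the medians were 23.2 and 27.8 FPKM, for the citrate cycle 42.9 and 50.6, for the pyruvate group 16.7 and 19.1, and for the pentose phosphate pathway 30.0 and 52.1. A median counts minor isoenzymes and regulators like the main enzymes, and the pentose phosphate median was the RPIA value in each library. By sum the order differed: upper glycolysis held 1599 and 1815 FPKM and the pyruvate group 1532 and 1733. The citrate cycle summed to 965 and 1100, and the pentose phosphate pathway to 580 and 567. The 19 glycolytic genes carried 70.1% of the summed FPKM of the 51 genes in PF and 72.0% in PJ, and GAPDH alone 22.3% and 25.3%.

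**Figure D1:**
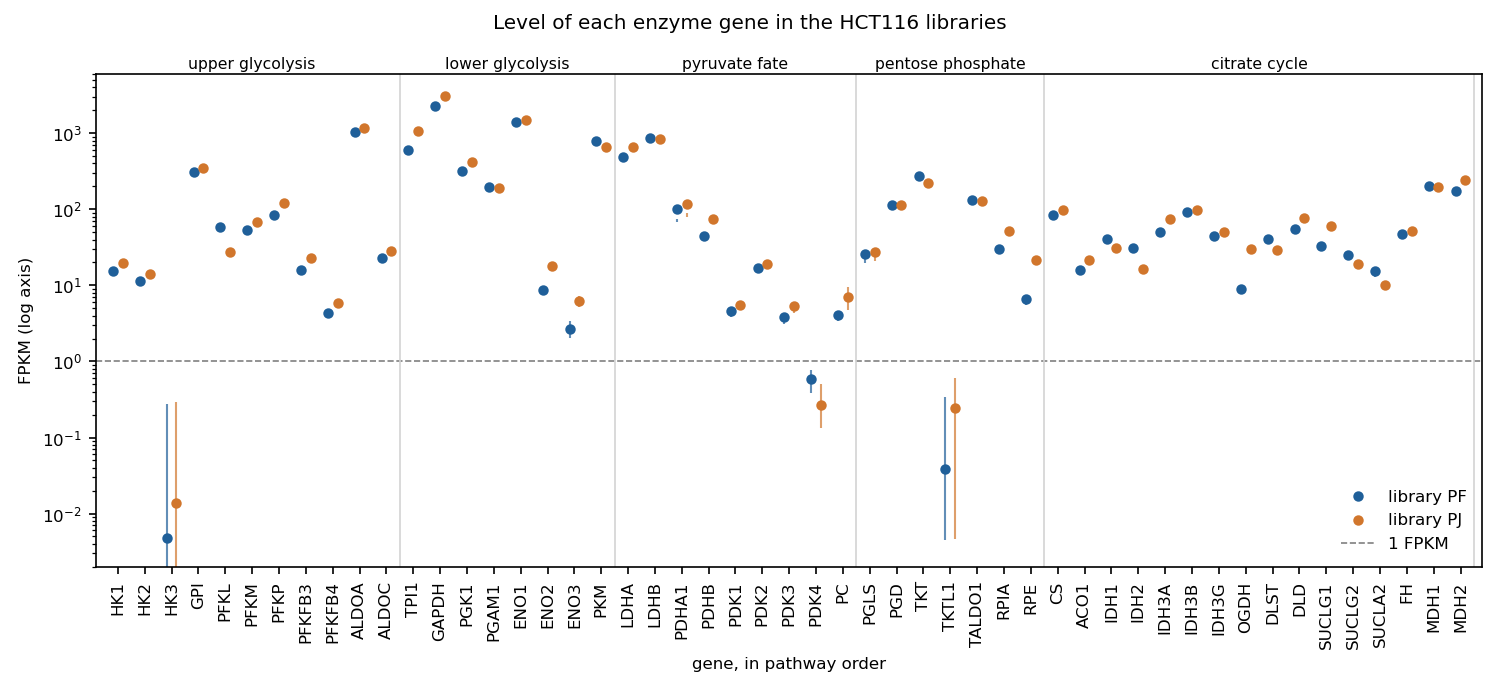
FPKM (log axis) of each of the 51 genes in library PF (blue) and library PJ (orange), in pathway order; points are estimates and vertical lines the deposited 95% bounds, cut at the lower edge of the axis. The dashed line marks 1 FPKM. HK3, PDK4 and TKTL1 lie below it in both libraries, and GAPDH lies highest in both.

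Glucose enters the pathway through hexokinase, which traps it as glucose 6-phosphate. HK1, the widely expressed form, was at 15.7 FPKM for PF (bounds 14.8 to 16.8) and 19.5 FPKM for PJ (18.8 to 20.9), and HK2, the insulin- and hypoxia-responsive form, at 11.5 (11.0 to 12.3) and 14.2 (13.7 to 15.0). HK1 was ahead in both libraries by nearly the same factor, 1.36 in PF and 1.37 in PJ, and held 57.6% ± 0.156 (SD, n = 2) of the family's FPKM. HK3, a form of blood cells, was at 0.00472 and 0.0139 FPKM, with upper bounds of 0.277 and 0.294. The summed hexokinase level, 27.2 and 33.7 FPKM, was the lowest of the steps on the direct line from glucose to lactate. The next enzyme, GPI (glucose-6-phosphate isomerase; chromosome 19, hg19 34850385 to 34893061), stood at 306 (PF) and 344 (PJ) FPKM.

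Phosphofructokinase, the main control point of glycolysis, was a mixture of its liver, muscle and platelet forms, in proportions that differed between the libraries. PFKP, the platelet form (chromosome 10, hg19 3109712 to 3179904), was at 83.4 (PF) and 122 (PJ) FPKM. PFKM, the muscle form, was at 54.1 and 68.9. PFKL, the liver form (chromosome 21, hg19 45719934 to 45747259), was at 58.3 FPKM for PF (bounds 56.6 to 60.4) and 27.8 FPKM for PJ (26.5 to 29.1). PFKP led in both libraries, with 42.6% of the family's FPKM in PF and 55.9% in PJ. PFKL was the second gene in PF, where its bounds overlapped those of PFKM (51.6 to 57.8), and the last in PJ. Its share was 29.8% and 12.7%, while the family's sum, 196 and 219 FPKM, differed little. The muscle markers fixed beside it (CKM, MYH7, ACTA1 and DES) summed to 1.58 (PF) and 2.99 (PJ) FPKM.

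The bifunctional enzymes PFKFB3 and PFKFB4 are among those that set fructose 2,6-bisphosphate, the strongest activator of phosphofructokinase. PFKFB3, whose kinase activity far exceeds its phosphatase activity, was at 16.0 (PF) and 23.0 (PJ) FPKM. PFKFB4 was at 4.32 and 5.78. PFKFB3 exceeded PFKFB4 3.69-fold in PF and 3.99-fold in PJ, and the order was the same in both cultures. Aldolase, which splits the hexose into trioses, came almost wholly from ALDOA, the muscle and ubiquitous form (chromosome 16, hg19 30064411 to 30081778), at 1027 (PF) and 1161 (PJ) FPKM. ALDOC, the brain form, was at 23.2 and 28.6 FPKM, or 2.21% and 2.41% of the family. ALDOC shares its span with another expressed gene, RP11-192H23.4, at 18.2 and 12.4 FPKM, and the labels do not say that reads were assigned by strand.

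Lower glycolysis held the 2 most abundant transcripts of the set, GAPDH and ENO1. GAPDH (glyceraldehyde-phosphate dehydrogenase; chromosome 12, hg19 6643093 to 6647537), at 2297 (PF) and 3082 (PJ) FPKM, was the highest of the 51 genes in both. TPI1, the triose-phosphate isomerase gene on the same chromosome arm (hg19 6976283 to 6980112), was at 609 FPKM for PF (bounds 599 to 632) and 1054 FPKM for PJ (1042 to 1089), 1.73 times as high in PJ. PGK1 and PGAM1, the phosphoglycerate kinase and mutase, followed, PGK1 at 316 (PF) and 417 (PJ) FPKM and PGAM1 at 198 and 193. They were the low points between GAPDH and enolase. PKM, the pyruvate kinase gene (chromosome 15, hg19 72491370 to 72524164), was at 784 (PF) and 668 (PJ) FPKM and was the only gene of lower glycolysis whose bounds lay lower in PJ. Its M1 and M2 splice forms share 1 row and could not be separated.

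Enolase was nearly all ENO1, the ubiquitous form (chromosome 1, hg19 8921061 to 8939308), at 1416 (PF) and 1509.7 (PJ) FPKM, above its own upper bound in each (1281 and 1382). ENO2, the neuronal form, was at 8.63 FPKM for PF (bounds 7.49 to 9.81) and 17.9 FPKM for PJ (16.4 to 19.4). ENO3, the muscle form, was at 2.69 (2.02 to 3.37) and 6.22 (5.22 to 7.22). Both minor forms were higher in PJ, 2.07 and 2.31 times by the plain ratio, with bounds apart, yet ENO1 kept 99.2% and 98.4% of the family. The neuron markers fixed beside it (SNAP25, SYP and RBFOX3) summed to 1.33 (PF) and 1.39 (PJ) FPKM. ENO3 shares its span with PFN1 (profilin), at 884 and 1101 FPKM, and ENO2 with LRRC23, at 3.61 and 8.81, so reads in the shared stretches cannot be told apart without strand.

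**Figure D2:**
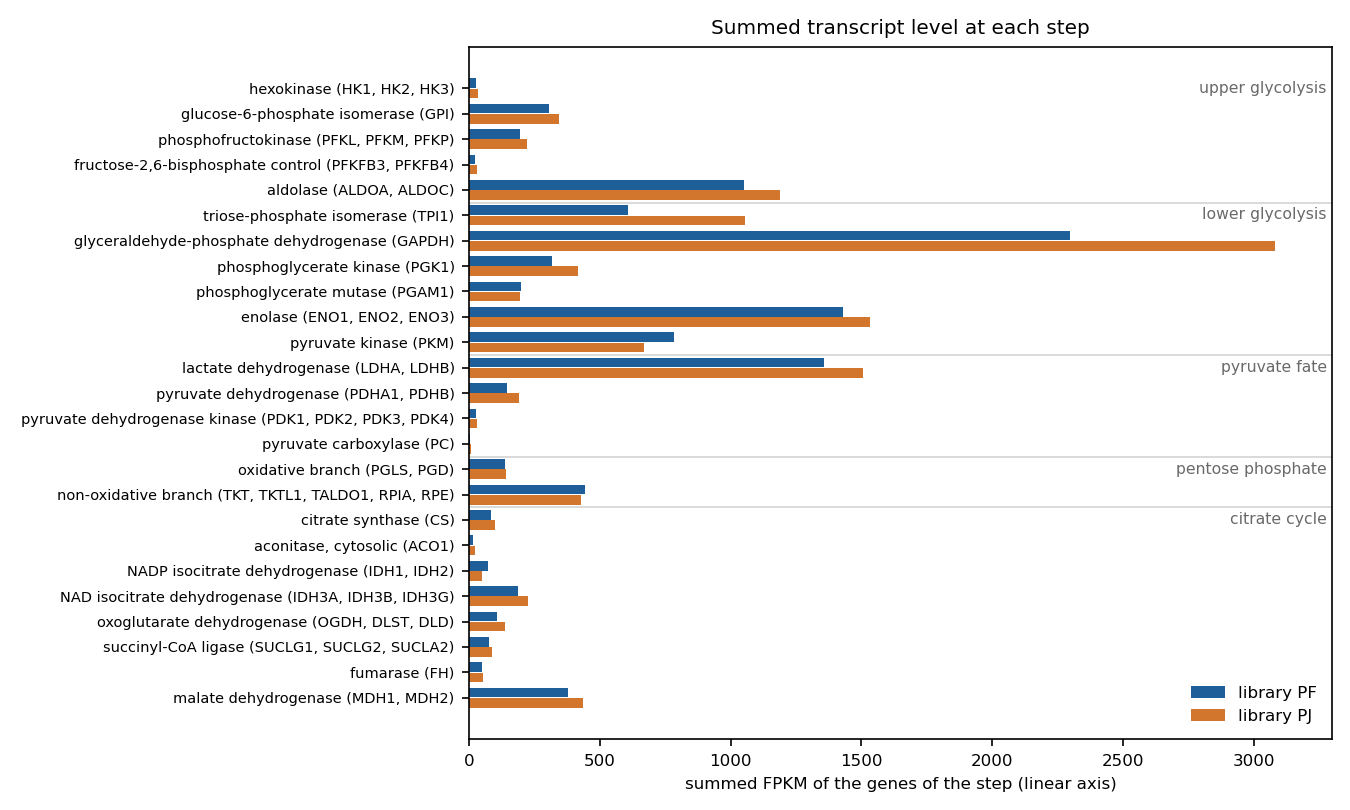
Summed FPKM (linear axis) of the genes of each step in library PF (blue bars) and library PJ (orange bars), from hexokinase at the top to malate dehydrogenase at the bottom. GAPDH is the longest bar in both libraries, followed by enolase (1428 and 1534 FPKM) and lactate dehydrogenase (1358 and 1505), while hexokinase (27.2 and 33.7) and the pyruvate dehydrogenase kinases (25.6 and 30.2) are low.

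The profile along the pathway was uneven in the same places in both libraries. Against hexokinase, at 27.2 and 33.7 FPKM, the sum per step was 1049.8 and 1189 at aldolase and highest at GAPDH. It was 1428 and 1534 FPKM at enolase and 1358 and 1505 at lactate dehydrogenase. Several of the high steps have processed copies in the genome, which share sequence with the parent and make its estimate uncertain. The rows of 57 GAPDH copies summed to 31.1% of the parent's FPKM in PF and 31.2% in PJ, those of 4 TPI1 copies to 47.2% and 43.0%, those of 4 ENO1 copies to 19.0% and 18.7%, and those of 6 LDHA copies to 18.8% and 18.3%.

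Lactate dehydrogenase is a tetramer of LDHA subunits, which favour the making of lactate and are a known hypoxia and MYC target, and LDHB subunits, which favour its use. LDHB (chromosome 12, hg19 21788276 to 21910791) was at 871 (PF) and 843 (PJ) FPKM. LDHA (chromosome 11, hg19 18415935 to 18429972) was at 487 and 662. LDHB was thus the higher form in both libraries, 1.79-fold in PF and 1.27-fold in PJ, with a share of 60.1% ± 5.73 (SD, n = 2). The LDHB estimates lay above their own bounds (733 to 753 and 719 to 739), and those of LDHA were within or just under theirs (484 to 503 and 663 to 681). With the midpoints of the bounds in place of the estimates, the LDHB share was 60.1% in PF and 52.0% in PJ. The bounds of the 2 genes did not overlap in either library. The rows of 6 processed LDHA copies summed to 91.4 (PF) and 121 (PJ) FPKM, and those of 3 LDHB copies to 12.5 and 13.8. With copies added to the estimates of their parents, 10 of 11 families had the same lead in both libraries by order alone. Whether LDHB leads in PJ with copies added to the midpoints was not tested.

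Promoter sequences are shown for this isoenzyme pair and for the other members that hold the full CACGTG, since the hypoxia response element has the core ACGTG and the MYC binding site CACGTG contains it. The 250 bases before the gene's start, from RefSeq on GRCh38.p14, were matched by symbol for 50 of the 51 genes; OGDH was the other. Searched on both strands (CACGT is the reverse complement of ACGTG), the core was found in 14 of the 50, or 28.0%, beside 18.7% of 27305 promoters of the same length and 20.9% of those of protein-coding symbols. It was found in 7 of 19 glycolytic promoters, 4 of 9 of the pyruvate group, 1 of 7 of the pentose phosphate group and 2 of 15 of the citrate cycle. The full CACGTG was found in ALDOC, GAPDH, LDHA and PDHB, 4 of 50 or 8.0%, beside 6.49% of all promoters and 7.86% of protein-coding ones. Both words hold a CpG, and the median CpG count per window was 21 for the members, 11 for all promoters and 18 for protein-coding ones. The part of CpG content in the match counts was not tested. A match is a description of the letters and not a bound site, and the table has 1 start per gene, which need not be the start used in HCT116. The windows are LDHA at chr11:18394313-18394562 (plus strand), LDHB at chr12:21657843-21658092 (minus), GAPDH at chr12:6535014-6535263 (plus), ALDOC at chr17:28576896-28577145 (minus) and PDHB at chr3:58433833-58434082 (minus). Each is written 5′ to 3′, with the matches in capitals.
LDHA: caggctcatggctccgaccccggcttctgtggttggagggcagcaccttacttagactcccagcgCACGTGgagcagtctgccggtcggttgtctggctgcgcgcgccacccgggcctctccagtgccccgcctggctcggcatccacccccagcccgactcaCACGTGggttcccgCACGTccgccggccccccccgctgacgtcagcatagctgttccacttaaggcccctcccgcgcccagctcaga
LDHB: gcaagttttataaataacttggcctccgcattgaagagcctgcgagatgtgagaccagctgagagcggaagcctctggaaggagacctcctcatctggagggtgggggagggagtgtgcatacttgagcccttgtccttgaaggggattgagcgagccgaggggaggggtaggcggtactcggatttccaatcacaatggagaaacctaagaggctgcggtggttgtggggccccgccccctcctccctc
GAPDH: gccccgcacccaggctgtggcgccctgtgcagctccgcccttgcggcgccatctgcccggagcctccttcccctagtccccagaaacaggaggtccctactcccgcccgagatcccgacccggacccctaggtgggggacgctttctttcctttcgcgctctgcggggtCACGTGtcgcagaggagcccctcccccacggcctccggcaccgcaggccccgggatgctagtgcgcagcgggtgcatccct
ALDOC: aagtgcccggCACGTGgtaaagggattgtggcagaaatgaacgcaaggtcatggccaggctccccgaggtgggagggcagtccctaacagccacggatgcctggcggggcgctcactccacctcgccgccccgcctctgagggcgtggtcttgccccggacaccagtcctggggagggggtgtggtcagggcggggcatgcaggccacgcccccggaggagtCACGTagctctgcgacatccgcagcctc
PDHB: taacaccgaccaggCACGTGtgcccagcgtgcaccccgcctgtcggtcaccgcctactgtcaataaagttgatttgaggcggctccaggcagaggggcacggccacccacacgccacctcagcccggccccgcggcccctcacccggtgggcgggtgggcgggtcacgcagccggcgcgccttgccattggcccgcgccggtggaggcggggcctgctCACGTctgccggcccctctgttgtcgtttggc

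The LDHA window has 3 runs of capitals, beginning 185, 87 and 73 bases before the start, of which the first 2 are the full CACGTG. The LDHB window has none. The GAPDH window has a full CACGTG 81 bases before the start. ALDOC and PDHB each have a full match far from the start, at 240 and 236 bases, and a CACGT close to it, at 28 and 32 bases. In level these genes span from ALDOC, at 23.2 and 28.6 FPKM, to GAPDH, at 2297 and 3082.

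Entry of pyruvate into the mitochondrial route had lower transcript levels than lactate production. PDHA1 and PDHB encode the alpha and beta subunits of pyruvate dehydrogenase. PDHA1 was at 100.2 (PF) and 116 (PJ) FPKM, but its bounds were lower, 67.1 to 75.4 and 79.6 to 88.6. PDHB (chromosome 3, hg19 58413357 to 58419584) was at 44.3 FPKM for PF (bounds 42.5 to 46.7) and 74.8 FPKM for PJ (72.2 to 78.3), 1.69 times as high in PJ. LDHA exceeded PDHA1 4.86-fold in PF and 5.72-fold in PJ, and PDHB 11.0-fold and 8.85-fold. PC, pyruvate carboxylase, which makes oxaloacetate from pyruvate, was at 4.03 FPKM for PF (3.44 to 4.62) and 7.05 FPKM for PJ (4.70 to 9.52) and shares its span with LRFN4, at 25.1 and 33.1.

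The pyruvate dehydrogenase kinases, which switch the complex off, were led by PDK2 and not by the hypoxia-induced PDK1. PDK2 was at 16.7 (PF) and 19.1 (PJ) FPKM, PDK1 at 4.54 and 5.54, and PDK3 at 3.82 and 5.31. PDK2 was ahead of PDK1 3.67-fold in PF and 3.45-fold in PJ and held 64.2% ± 1.35 (SD, n = 2) of the family. PDK1 and PDK3 were close, and their bounds overlapped in PF (3.86 to 5.22 and 3.14 to 4.32) and in PJ (4.89 to 6.28 and 4.34 to 5.70). PDK4, the form of fasting and fat oxidation, was at 0.580 (PF) and 0.271 (PJ) FPKM.

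In the pentose phosphate pathway the 2 oxidative enzymes among the members had nearly equal levels in the libraries. PGD, 6-phosphogluconate dehydrogenase (chromosome 1, hg19 10458649 to 10480201), was at 112 (PF) and 113 (PJ) FPKM. PGLS, 6-phosphogluconolactonase, was at 25.6 and 27.2, both above its own upper bounds (22.9 and 24.6). In the non-oxidative branch TKT, transketolase (chromosome 3, hg19 53258723 to 53290068), led at 274 and 224 FPKM, and TALDO1, transaldolase, was at 132 and 128. The transketolase-like gene TKTL1, which has been linked to tumours, was at 0.0386 and 0.241 FPKM with upper bounds of 0.341 and 0.609, 0.0141% and 0.107% of the pair.

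The enzymes that interconvert ribulose, ribose and xylulose phosphates were both higher in PJ. RPIA, ribose-5-phosphate isomerase, was at 30.0 FPKM for PF (bounds 28.3 to 31.6) and 52.1 FPKM for PJ (50.5 to 54.6). RPE, ribulose-5-phosphate epimerase (chromosome 2, hg19 210867289 to 210886300), was at 6.52 (5.55 to 7.51) and 21.5 (20.0 to 23.0). RPE was 3.29 times as high in PJ, the second largest log2 difference of the 51 genes, while TKT was lower in PJ and the bounds of PGD, PGLS and TALDO1 overlapped between libraries. The pathway's summed level was nearly equal, 580 (PF) and 567 (PJ) FPKM. RPE shares its span with KANSL1L, at 1.53 and 2.77 FPKM.

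The citrate cycle genes were all expressed, from OGDH, at 8.84 FPKM in PF, to MDH2, at 242 in PJ. CS, citrate synthase (chromosome 12, hg19 56665483 to 56694176), was at 84.3 (PF) and 96.7 (PJ) FPKM, and FH, fumarase, at 46.8 and 51.5. ACO1, the cytosolic aconitase that doubles as an iron sensor when it lacks its cluster, was at 15.9 and 21.6. These differed by less than 1.4 times between the libraries.

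Isocitrate dehydrogenase showed 2 patterns. The NAD-dependent mitochondrial enzyme is built of IDH3A, the catalytic subunit, and the regulatory IDH3B and IDH3G. IDH3B was the highest, at 92.3 (PF) and 98.3 (PJ) FPKM, IDH3A was at 50.9 and 75.4, and IDH3G at 44.9 and 49.7. IDH3A and IDH3G had overlapping bounds in PF and stood 1.52-fold apart in PJ. The NADP-dependent enzymes were both lower in PJ: IDH1, of the cytosol (chromosome 2, hg19 209100951 to 209130798), was at 40.5 and 31.1 FPKM. IDH2, of the mitochondrion (chromosome 15, hg19 90626277 to 90645736), was at 31.4 (bounds 29.6 to 33.2) and 16.2 (15.0 to 17.3). IDH1 led by 1.29-fold in PF and 1.92-fold in PJ, and the IDH2 share of the pair was 43.7% and 34.2%. IDH3G shares its span with SSR4, at 155 and 139 FPKM, and IDH3A with CIB2, at 14.8 and 18.1.

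The 2-oxoglutarate dehydrogenase complex held the gene with the largest log2 difference between the libraries, and its subunits stood in different proportions. OGDH, its first and substrate-specific subunit (chromosome 7, hg19 44646171 to 44748665), was at 8.84 FPKM for PF (bounds 8.20 to 9.54) and 30.0 FPKM for PJ (29.1 to 31.4). DLST, the second subunit, was at 40.9 (39.2 to 42.6) and 29.4 (28.2 to 31.1), and DLD, the third subunit, which pyruvate dehydrogenase shares, at 55.5 and 75.7. OGDH was thus 3.39 times as high in PJ, DLD 1.36 and DLST 0.719 times, and DLST exceeded OGDH 4.63-fold in PF but not in PJ, where their bounds overlapped (ratio 0.980). DLD shares its span with LAMB1, at 12.5 and 2.88 FPKM.

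Succinyl-CoA ligase pairs the alpha subunit SUCLG1 with a GTP-forming (SUCLG2) or an ATP-forming (SUCLA2) beta subunit. SUCLG1 was at 33.3 FPKM for PF (bounds 31.7 to 34.9) and 59.5 FPKM for PJ (56.9 to 62.4). SUCLG2 was at 24.9 and 19.2, and SUCLA2 at 15.5 and 10.1. The GTP form led in both libraries, with 61.7% and 65.6% of the beta FPKM. The alpha subunit was higher and both beta subunits lower in PJ, and SUCLG1 was 0.825 times the sum of the beta subunits in PF and 2.03 times in PJ. The rows of 2 SUCLG2 copies summed to 39.2% of its FPKM in PF and 35.3% in PJ.

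Malate dehydrogenase was the family in which the leading gene differed. MDH1, of the cytosol (chromosome 2, hg19 63815743 to 63834331), was at 203 FPKM for PF (bounds 199 to 211) and 194 FPKM for PJ (191 to 202). MDH2, of the mitochondrion (chromosome 7, hg19 75677369 to 75696826), was at 176 (153 to 163) and 242 (213 to 227). MDH1 was the higher by 1.15-fold in PF, and MDH2 by 1.25-fold in PJ, each with bounds apart, although both MDH2 estimates lay above their own bounds. In the other 10 of the 11 isoenzyme families the same gene led in both libraries, with bounds above those of the second gene: HK1, PFKP, PFKFB3, ALDOA, ENO1, LDHB, PDK2, TKT, IDH1 and SUCLG2. Processed copies had no part in these bounds. The lead was nearly complete for TKT, ENO1 and ALDOA, and below 66% of the family for HK1, PFKP, LDHB, PDK2, IDH1 and SUCLG2 in each library.

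**Figure D3:**
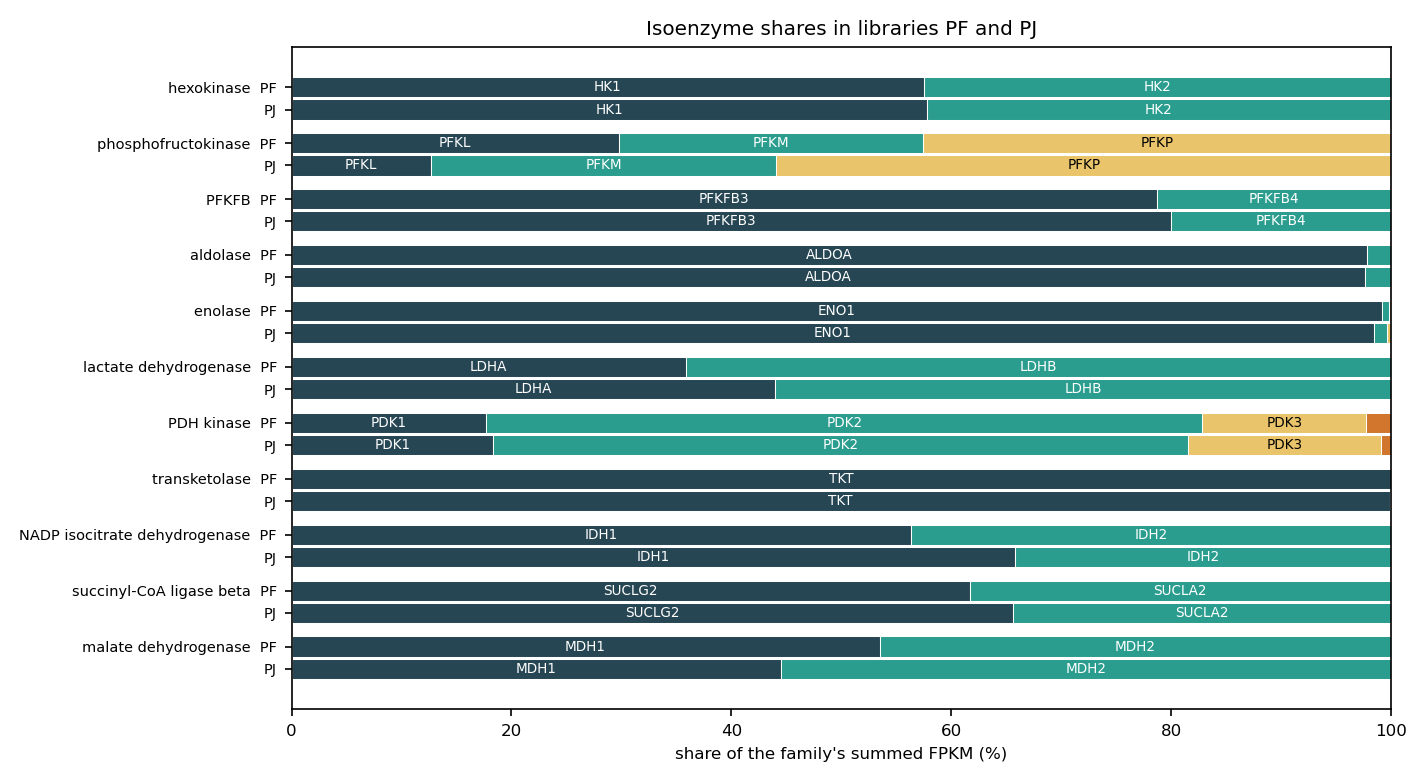
Share of each isoenzyme in its family's summed FPKM (%), with library PF as the upper and library PJ as the lower bar of each pair. The same gene leads in both bars of every family except malate dehydrogenase, where MDH1 has 53.5% in PF and MDH2 has 55.5% in PJ, and PFKL has 29.8% of phosphofructokinase in PF and 12.7% in PJ.

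Few of the enzyme genes differed 2-fold between the libraries. The difference was taken as the log2 ratio of PJ over PF after adding 1 FPKM to each, which understates the change of low genes, over the 48 members whose mean reached 1 FPKM. Of these, 2 were at least 2-fold higher in PJ (OGDH, log2 1.66, and RPE, 1.58), or 4.17%, beside 10.4% of all 15736 symbols with that mean and 10.7% of the protein-coding ones. PFKL, at -1.04, was the only member at least 2-fold lower, or 2.08%, beside 5.22% and 4.38%. IDH2, at -0.92, and ENO2 and ENO3, each at 0.97, lay just short of the limit. With 1 library on each side there is no replicate check and no test of these differences.

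The median log2 ratio of the members was 0.26, and of all symbols tested 0.22. PJ was higher in 36 of the 48 members and lower in 12; among all symbols 65.8% were higher and 34.2% lower, and among protein-coding symbols 66.6% and 33.4%. The bounds lay apart and higher in PJ for 30 of the 48, where the share was 44.5% of all symbols and 51.1% of protein-coding ones, and apart and lower for 8, where it was 18.2% and 20.8%. By route the median was 0.41 for lower glycolysis, 0.31 for the pyruvate group, 0.29 for upper glycolysis, 0.14 for the citrate cycle and 0.05 for the pentose phosphate pathway. The library shift was 0.25 on the log2 scale, the median over symbols at 1 FPKM or more in both, without the added 1 FPKM. Against this shift, 24 of the 48 members were higher in PJ by the ratio with the added 1 FPKM. The share was 48.0% of all symbols and 49.9% of protein-coding ones. The 24 members included 12 of 18 glycolytic genes and 6 of 16 citrate cycle genes. PDK1 was not counted, though its plain ratio of 1.22 exceeded the shift of 1.19. The summed epithelial markers were lower in PJ (1530.5 and 906 FPKM), with KRT8 at 760 and 280, while KRT19 was slightly higher (306 and 325). The part of these markers in the differences was not tested.

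**Figure D4:**
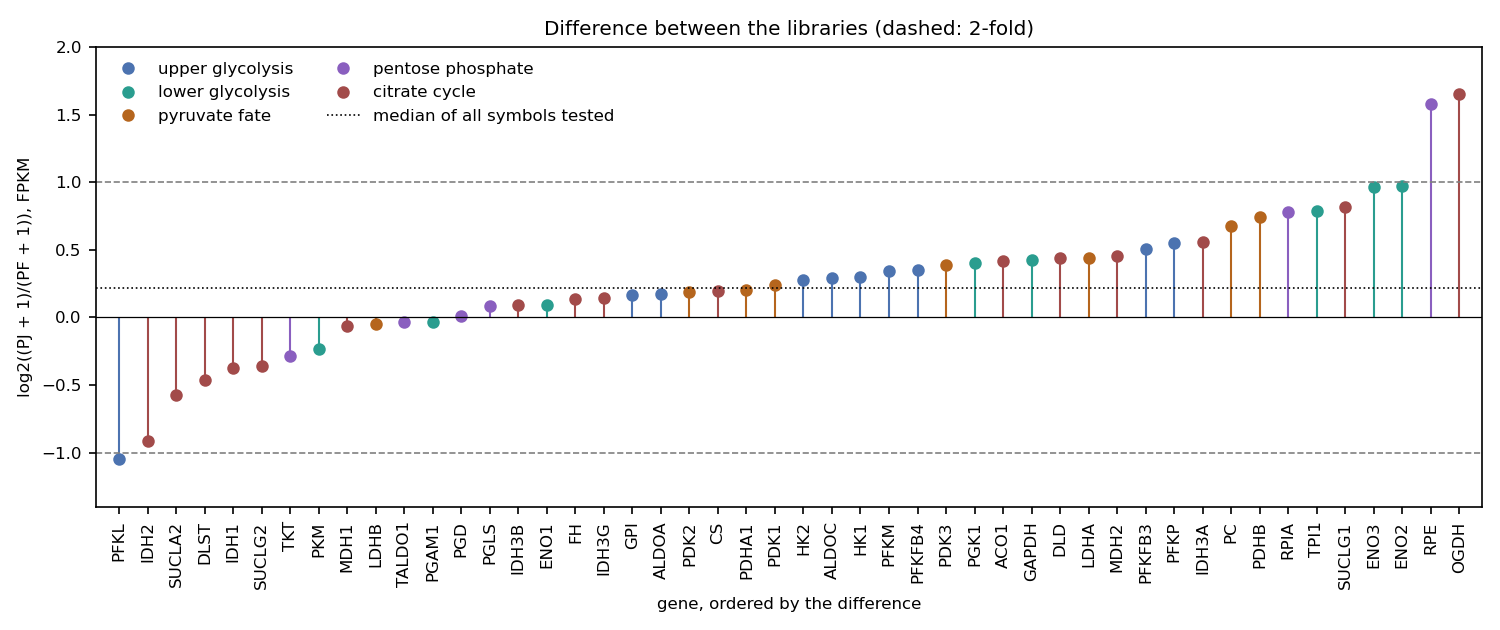
Log2 ratio of library PJ over library PF, after adding 1 FPKM to each, for the 48 genes whose mean reached 1 FPKM, ordered by the ratio and coloured by route; dashed lines mark 2-fold and the dotted line the median of all 15736 symbols tested (0.22). OGDH and RPE lie above the upper dashed line and PFKL below the lower one.

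The other genes of these routes were read from a list of 53 symbols, of which 50 were measured; the other 3 are alternative names of listed genes. Of the 50, 30 reached 1 FPKM in each library, beside 57.3% of protein-coding symbols. Of the 32 whose mean did, 4 were at least 2-fold higher in PJ (among them PDP2, RBKS and BPGM) and 1 at least 2-fold lower (PDPR). The shares of protein-coding symbols were 10.7% and 4.38%, so these few counts lay near the background. The 3 highest were PDP1, a phosphatase that switches pyruvate dehydrogenase on, at 178 (PF) and 126 (PJ) FPKM, SDHB, a succinate dehydrogenase subunit, at 105 and 173, and the mitochondrial phosphatase gene PGAM5, at 85.8 and 136. PCK1, the gluconeogenic phosphoenolpyruvate carboxykinase, was the lowest and listed at 0 in both.

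Isoenzymes of liver and testis and enzymes of gluconeogenesis were among the lowest. PKLR, the liver and red cell pyruvate kinase, was at 0.00887 and 0.00615 FPKM, and the testis gene LDHC at 0.123 and 0.0995. FBP1, which reverses the phosphofructokinase step, was at 0.113 and 0.274, and G6PC, which releases glucose, at 0.00588 and 0.00507. The phosphatase regulator gene PDPR was at 18.2 (PF) and 7.44 (PJ) FPKM, and the second phosphatase PDP2 at 1.95 and 7.48. These genes were chosen as examples after their values were seen.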

How the data were processed

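Per the labels' protocols, RNA was taken with TRIzol and made into paired-end TruSeq libraries. Per the submitters' processing notes, reads were processed with TopHat2 2.0.8b, TopHat and Cufflinks on the hg19 genome; annotation release and strand setting: not given in the sources used here. Each library has 1 deposited table that holds, per the file headers, FPKM, its 95% bounds and a quality status. The unit is scaled to the library's total, so abundant RNAs lower the other values. Status FAIL (23 genes in PF, 20 in PJ, no member) was treated as missing, and rows sharing a symbol were summed.

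From these values shares of a family, log2 ratios with a pseudocount of 1 FPKM, and counts past 1 FPKM, 100 FPKM and 2-fold were computed, with the same over 51609 symbols with a value in both libraries. Coordinates count from 1. Gene types came from GENCODE release 29, matched by identifier for 88.7% of 56586 rows; no coordinate of it was used. Every member is named with both values, by route. A few other genes are not reported here. A family's lead counted when its lower bound exceeded the second gene's upper bound in both libraries. Families held members only, so expressed relatives such as PFKFB2 had no part in leads or shares. The replicates are cultures of 1 group, so no p-value was computed; the members and lists were chosen with earlier results of these data known. Counting was tested on simulated data. Alternatives were other thresholds, pseudocounts, filters, scalings, treatments of rows and 1 library at a time. The software was Python 3.11.15 with pandas 2.3.3, numpy 2.4.6 and matplotlib 3.10.9.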

Additional observations from a re-analysis of the deposited data

How the results depend on the processing

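Depth is unknown and 2 libraries are few, so single differences rest on the deposited bounds. The 48 expressed members stayed 48 at 0.5 FPKM and with either library alone, and were 43 at 5 FPKM. The share of all symbols was 31.1% at 0.5 FPKM, 29.8% with PF alone, 30.3% with PJ alone and 19.0% at 5 FPKM. The count of members at least 2-fold higher in PJ was 2, and 4 with a pseudocount of 0.1. The share of all symbols rose with it, from 10.4% to 14.5%. The count lower was 1, 0 with a pseudocount of 5 and 2 (PFKL and IDH2) with the median ratio divided out. The share of all symbols was 5.22%, 2.19% and 7.24% in these settings. Dividing out the median ratio put the median log2 ratio of the members at 0.042 and of all symbols at 0.00404, in place of 0.26 and 0.22. With either library alone, 11 of 11 families have a clear lead, since agreement is no longer asked. With the midpoints of the bounds in place of the estimates, an alternative chosen after seeing the data, the mean share of LDHB was 56.1% in place of 60.1% and that of MDH2 48.2% in place of 51.0%. No paired analysis was possible because there is 1 group.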

Other observations

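Processed copies of several glycolytic genes were listed at high levels. The highest was TPI1P1, at 277 (PF) and 440 (PJ) FPKM, beside its parent TPI1 at 609 and 1054. ENO1P1 was at 268 and 281 FPKM, GAPDHP1 at 251 and 354, and LDHAP4 at 57.0 and 78.0. The summed copies of TPI1, GAPDH and LDHA were higher in PJ, as their parents were. All 6 LDHA copies, 11 of 57 GAPDH copies and 0 of 12 PGAM1 copies reached 1 FPKM in each library. PGAM4, a further phosphoglycerate mutase gene, was at 26.8 and 28.3 FPKM beside PGAM1 at 198 and 193. Whether reads of the copies came from the parents was not tested.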
